A study of Mus musculus with 16 samples.

Results

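The 9 genes described here mark plasma cells or carry their antibody across the gut wall: Irf4, Xbp1, Pou2af1, Mzb1, Derl3, Igj, Sdc1, Cd38 and Pigr. They were taken by their names on the array, where 8 of the 9 names were found as written and Igj was found under its newer symbol Jchain, which RefSeq pairs with Igj. All 9 were among the 36711 genes of the fit, of 36870 gene names on the array, and each was well above background on all 16 arrays. A plasma cell is a B cell that has turned its endoplasmic reticulum over to antibody secretion. In the gut most plasma cells make IgA as polymers held together by the joining chain, and the polymeric immunoglobulin receptor of the epithelium carries those polymers into the lumen. In young mice this system fills up around weaning, as antibody from milk gives way to the animal's own.

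Colon RNA was measured in 16 SWISS mice (RjOrl:SWISS, an outbred stock) at weaning, at 3 weeks of age, on 1-colour Agilent arrays. The 8 C-section delivered (CSD) pups, 4 females and 4 males, were taken by hysterectomy and given to foster mothers that had just delivered vaginally. The 8 vaginally delivered (VD) pups, 2 females and 6 males, came from litters that were exchanged between mothers. By their biological mother, the CSD pups came from mothers 3 and 4, with 4 pups each, and the VD pups from mother 5 (5 pups, including both VD females) and mother 6 (3 pups), so that each group holds only 2 litters. Both slides carried 4 arrays of each group. Between 61.6% and 64.5% of spots were well above background in CSD pups and between 58.7% and 64.9% in VD pups, and no spot was saturated. Markers of the colon were present, with all 10 measured well above background on every array, while 5 of 10 small intestinal markers were above background on none and 3 were on all, Fabp2 being the brightest (11.92 ± 0.51 in CSD and 11.23 ± 0.45 in VD pups, SD, n = 8 each). Intensities are on a log2 scale after normalization between arrays. They compare pups for 1 gene, not genes with each other, because probes differ in how strongly they bind. In whole colon RNA, fewer plasma cells and less RNA per plasma cell cannot be told apart.

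No gene of the 9 passed the test between CSD and VD pups, but 5 of them had lower means in the CSD group with an unadjusted p under 0.05: Jchain, Mzb1, Irf4, Pou2af1 and Derl3. Those 5 had fitted log2 differences, CSD minus VD, from -0.95 (Jchain) to -0.37 (Irf4). The other 4 genes, Xbp1, Sdc1, Cd38 and Pigr, had fitted differences between -0.01 and 0.06. Over all genes, 1.25% were called in either direction at an adjusted p under 0.05 (limma, fixed terms for delivery and sex, a random term for mother, Benjamini-Hochberg adjustment), and 7.09% were lower in CSD pups at an unadjusted p under 0.05. For all 5 genes the means of both CSD litters lay below the means of both VD litters, and for the other 4 the litters were mixed. Of all genes, 20.3% had both CSD litters below. The 5 were picked for their lower CSD means, so this share does not test them. Leaving out VD 4, the highest VD pup in 4 of these genes, brought the difference of Jchain to -0.60, of Pou2af1 to -0.38 and of Derl3 to -0.34, and without the litter of mother 5 none of the 9 genes had an unadjusted p under 0.05. The CSD pups overlapped the VD pups in each of the 9 genes, where 0.493% of all genes had no overlap between the groups.

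**Figure D1:**
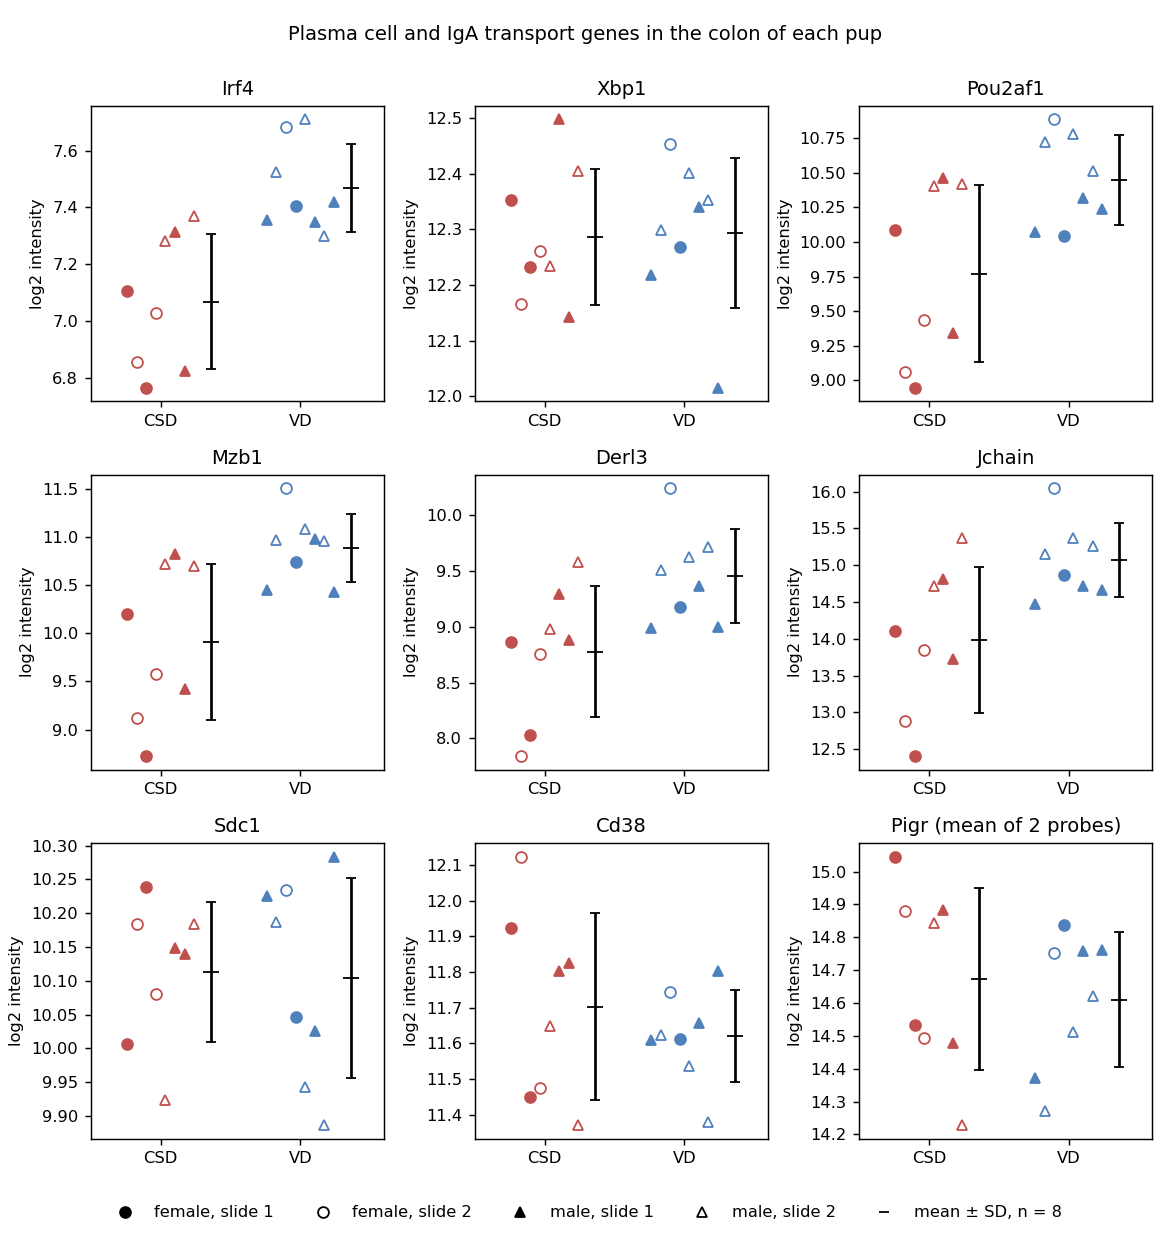
Log2 intensity of each of the 9 genes in each pup, CSD on the left and VD on the right of each panel, with females as circles, males as triangles, slide 1 filled and slide 2 open, and the mean ± SD of 8 pups beside each group. In Jchain, Mzb1, Irf4, Pou2af1 and Derl3 the lowest CSD pups, mostly females, lie below every VD pup, while CSD pups lie on both sides of the VD range in Pigr (4 above, 1 below) and Cd38 (3 above, 1 below), and all but 1 pup in Xbp1 and all in Sdc1 lie within it.

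Among the transcription factors of the plasma cell, Irf4, which drives B cells towards the plasma cell state, was the closest to the threshold. It ranged in CSD pups from 6.77 through a median of 7.07 to 7.37, and in VD pups from 7.30 through 7.41 to 7.71. Of the 8 CSD pups, 6 lay below every VD pup. The group means were 7.07 ± 0.24 (SD, n = 8) and 7.47 ± 0.16 (n = 8), with a fitted difference of -0.37 (SE 0.099, limma adjusted p = 0.0809). The size of the difference depended on the processing, with -0.72 from the scanner's processed signal after quantile normalization (adjusted p = 0.116), -0.71 from that signal minus its 75th percentile (adjusted p = 0.0924) and -0.56 in the deposited matrix (adjusted p = 0.0868). Irf4 was called without sex in the model (adjusted p = 0.0322) and without the litter of mother 6 (adjusted p = 0.0267), and over all alternatives its adjusted p ran from 0.0267 to 0.58. Of 36711 genes, those fits called 448 and 1095 lower in CSD pups, against 201 in the main fit. Permuting the group labels in all 12870 ways, an exact two-sided test that takes no account of litter or sex, gave p = 0.00109. Irf4 has 2 probes on chromosome 13 (mm9). The brighter, at chr13:30858532-30858591, differed by -0.57, and the dimmer, at chr13:30856460-30856519, by -0.23, with only 6 of 8 CSD arrays above background in the latter.

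Xbp1, the factor that expands the secretory machinery of plasma cells and of other secretory cells, had nearly the same mean in both groups. CSD pups ranged from 12.14 through 12.25 to 12.50 and VD pups from 12.02 through 12.32 to 12.45. The means were 12.29 ± 0.12 and 12.29 ± 0.13 (SD, n = 8 each), the fitted difference was -0.01 (SE 0.068, limma adjusted p = 0.972), and its 3 probes on chromosome 11 differed by -0.04, -0.02 and 0.04.

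Pou2af1, the B cell coactivator that works with octamer-binding factors, ranged from 8.95 through 9.76 to 10.46 in CSD pups and from 10.04 through 10.42 to 10.89 in VD pups. In the CSD group 4 of 8 pups lay below every VD pup and the others lay within the VD range. The means were 9.77 ± 0.64 and 10.45 ± 0.33 (SD, n = 8 each) and the fitted difference was -0.57 (SE 0.23, limma adjusted p = 0.257; exact permutation p = 0.0222).

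The promoters of the genes were searched for letters known from this programme, since 5 of the 9 genes varied together across pups. The table of RefSeq promoters (GRCm38.p6, 250 bases before to 50 after each start) held 8 of the 9 genes. The octamer ATTTGCAT was in none of the 8 and in 1.74% of 32851 promoters, counted on both strands. The interferon regulatory factor pair GAAANNGAA was likewise in none of the 8 and in 8.56% of all. The core TGACGTG of the unfolded protein response element, which XBP1 is known to bind, was in 1 of the 8, that of Pou2af1, and in 2.01% of all. It begins at base -61 relative to the start of Pou2af1. The match is shown in capitals in the 100 bases at chr9:51213570-51213669 (GRCm38.p6, plus strand), as an example of what was searched.
Pou2af1 promoter: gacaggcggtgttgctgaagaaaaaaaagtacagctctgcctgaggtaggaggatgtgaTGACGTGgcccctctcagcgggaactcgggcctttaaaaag
A match of letters is not evidence that a factor binds there, and the other promoters may hold such letters outside these windows.

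Mzb1 and Derl3, which serve the endoplasmic reticulum, had lower means in CSD pups, but neither was called. Mzb1, an endoplasmic reticulum protein that helps to assemble and secrete IgM and IgA, ranged from 8.72 through 9.89 to 10.82 in CSD pups and from 10.43 through 10.96 to 11.51 in VD pups. All 8 CSD pups were below the VD median and 5 were below every VD pup. The means were 9.91 ± 0.81 and 10.89 ± 0.35 (SD, n = 8 each), with a fitted difference of -0.87 (SE 0.29, limma adjusted p = 0.162; exact permutation p = 0.00839). Derl3, a channel component in the removal of misfolded proteins from the endoplasmic reticulum, ranged from 7.84 through 8.87 to 9.58 in CSD pups and from 8.99 through 9.44 to 10.25 in VD pups. Its means were 8.78 ± 0.59 and 9.45 ± 0.42 (SD, n = 8 each), with a fitted difference of -0.60 (SE 0.25, limma adjusted p = 0.261; exact permutation p = 0.0157).

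Jchain, the joining chain that links IgA and IgM into polymers, had the widest spread of the 9 genes. CSD pups ranged from 12.40 through 13.98 to 15.36 and VD pups from 14.48 through 15.01 to 16.05. The lowest CSD pup, CSD 3, lay far below the lowest VD pup, VD 10, while the highest CSD pup, CSD 9, was above the VD median. The means were 13.98 ± 0.996 and 15.07 ± 0.50 (SD, n = 8 each). The fitted difference of -0.95 (SE 0.37) is a 1.93-fold lower intensity, at a limma adjusted p of 0.239 and an exact permutation p of 0.0141. The antibody chains themselves, which the array lists under transcript identifiers and the file describes in words, had values on the same side. The heavy constant alpha chain of IgA (ENSMUST00000178282) was at 17.24 ± 0.79 in CSD and 18.15 ± 0.30 in VD pups (SD, n = 8 each), with a fitted difference of -0.77 (limma adjusted p = 0.179), and the kappa constant chain (ENSMUST00000103410) had a fitted difference of -0.95 (adjusted p = 0.166). Of 12 names described as immunoglobulin constant chains, a group chosen after its values were seen, all 12 were lower, with a median of -0.88, and 2 were called lower (over all genes 17725 of 36711 were lower and 0.548% were called lower), gamma 1 (ENSMUST00000103420) at -0.82 (adjusted p = 0.0442) and gamma 2B (ENSMUST00000103418) at -1.81 (adjusted p = 0.0392). The list of antibody chain symbols found only 2 of its 17 names, Iglv1 at -1.34 (adjusted p = 0.151) and Igh-VJ558 at -0.38 (adjusted p = 0.229).

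The surface proteins used to recognise plasma cells had close means in both groups. Sdc1, syndecan 1 or CD138, which epithelial cells also carry, was at 10.11 ± 0.10 in CSD and 10.10 ± 0.15 in VD pups (SD, n = 8 each), with a range of 9.92 through 10.14 to 10.24 against 9.89 through 10.12 to 10.28. The fitted difference was 0.00 (limma adjusted p = 0.993), and its 3 probes on chromosome 12 differed by 0.05, -0.03 and 0.00. Cd38, an ectoenzyme of plasma cells and many other cells, ranged from 11.37 through 11.73 to 12.12 in CSD pups and from 11.38 through 11.62 to 11.80 in VD pups. Its means were 11.70 ± 0.26 and 11.62 ± 0.13 (SD, n = 8 each), with a fitted difference of 0.06 (SE 0.10, limma adjusted p = 0.838).

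Pigr, the epithelial receptor that carries polymeric IgA, had a fitted difference of 0.02 (SE 0.11, limma adjusted p = 0.966) as the mean of its 2 probes, but those probes gave different values. That mean ranged from 14.23 through 14.69 to 15.05 in CSD pups and from 14.27 through 14.69 to 14.84 in VD pups, with all 4 CSD pups of mother 4 above every VD pup and 1 pup of mother 3 below. RefSeq places Pigr on chromosome 1. The first probe lies there in the files' coordinates, at chr1:132741106-132741165 (mm9, plus strand). The other is placed at chr4:151670425-151670484 (mm9, minus strand), consists of A and G in all of its 60 bases and lists 4 RefSeq transcripts, against 1 for the first. The sequences show the contrast, with each GAA or GAG triplet in capitals, the first probe whole and the last 30 bases of the second.
Pigr probe, chromosome 1: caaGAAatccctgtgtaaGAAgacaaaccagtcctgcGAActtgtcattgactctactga
Pigr probe, A and G bases: aaGAAGAAGAAGAAGAAGAAGAAGAAGAAg
The probe on chromosome 1 ranged from 10.40 through 11.15 to 11.71 in CSD pups and from 10.95 through 11.16 to 11.70 in VD pups. Its means were 11.07 ± 0.46 and 11.25 ± 0.28 (SD, n = 8 each), a difference of -0.18 (exact permutation p = 0.359), and put in place of the gene mean in the fit it gave -0.22 (limma adjusted p = 0.642). The probe of A and G bases ranged from 18.02 through 18.33 to 18.39 in CSD pups and from 17.39 through 17.99 to 18.36 in VD pups, with means of 18.27 ± 0.15 and 17.97 ± 0.33 and a difference of 0.30 (exact permutation p = 0.0287). Across the 16 pups the 2 probes had a correlation of 0.00. The array holds 14 other probes made only of A and G, and all 14 had a higher mean in CSD pups, with a median difference of 0.30. Their correlations with the Pigr probe of A and G bases ran from 0.52 to 0.99, with a median of 0.81. How far that probe reads Pigr RNA was not tested.

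**Figure D2:**
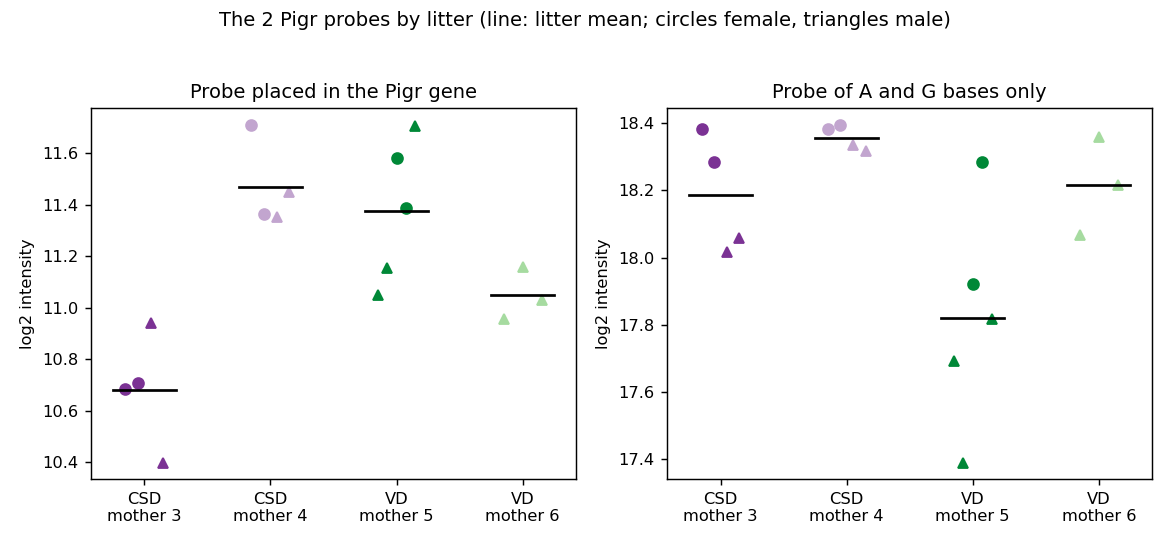
Log2 intensity of the 2 Pigr probes in each pup, by litter, with a line at the litter mean and females as circles, males as triangles. On the chromosome 1 probe all 4 pups of mother 3 lie below the 4 pups of mother 4, and the VD litters lie between or beside them; the probe of A and G bases orders the litters differently.

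Pigr had its clearest split between the CSD litters. On the chromosome 1 probe the CSD litter of mother 3 was at 10.68 ± 0.22 and that of mother 4 at 11.47 ± 0.17 (SD, n = 4 each), while the VD litters of mothers 5 and 6 were at 11.38 ± 0.28 (n = 5) and 11.05 ± 0.10 (n = 3). As the mean of both probes, Pigr in the litter of mother 3 differed from that of mother 4 by -0.48 on the log2 scale (limma adjusted p = 0.0974), and Cd38 differed between the same litters by -0.35 (limma adjusted p = 0.389). Between the VD litters, Sdc1 was 0.25 higher in that of mother 5 (adjusted p = 0.142). None of the 9 genes was called between the litters of either group, where 0.0872% of all genes were called between mothers 3 and 4 and 0.874% between mothers 5 and 6. In Jchain the litters of a group had close means, with 13.83 ± 1.21 and 14.13 ± 0.89 in the CSD litters and 15.04 ± 0.62 and 15.12 ± 0.36 in the VD litters.

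In Jchain, Mzb1, Irf4, Pou2af1 and Derl3 the lowest CSD pup was a female, and in the other 4 genes it was a male. Jchain was at 13.31 ± 0.80 in the 4 CSD females and 14.65 ± 0.68 in the 4 CSD males, against 15.46 ± 0.84 in the 2 VD females and 14.94 ± 0.37 in the 6 VD males (SD). Mzb1 followed the same order, with 9.41 ± 0.63 and 10.42 ± 0.66 in CSD females and males and 11.12 ± 0.55 and 10.81 ± 0.29 in VD females and males. In males alone the fitted difference was -0.29 for Jchain, -0.40 for Mzb1, -0.25 for Irf4, -0.28 for Pou2af1 and -0.18 for Derl3, and no gene on the array was called. In females alone, an alternative added after the values were seen, the same genes had differences of -2.15, -1.72, -0.60, -1.08 and -1.34, and the smallest adjusted p among them was 0.0733 (limma). The test of the delivery by sex interaction itself had an unadjusted p of 0.00864 for Jchain, 0.0203 for Mzb1 and 0.0137 for Derl3, where 4.72% of all genes were under 0.05, but their adjusted p was 0.981 and only 1 gene on the array (0.00272%) was called. Both VD females came from the litter of mother 5, so that among VD females 1 litter stands for the group. None of the 9 genes was called between males and females, where 0.0599% of all genes were.

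**Figure D3:**
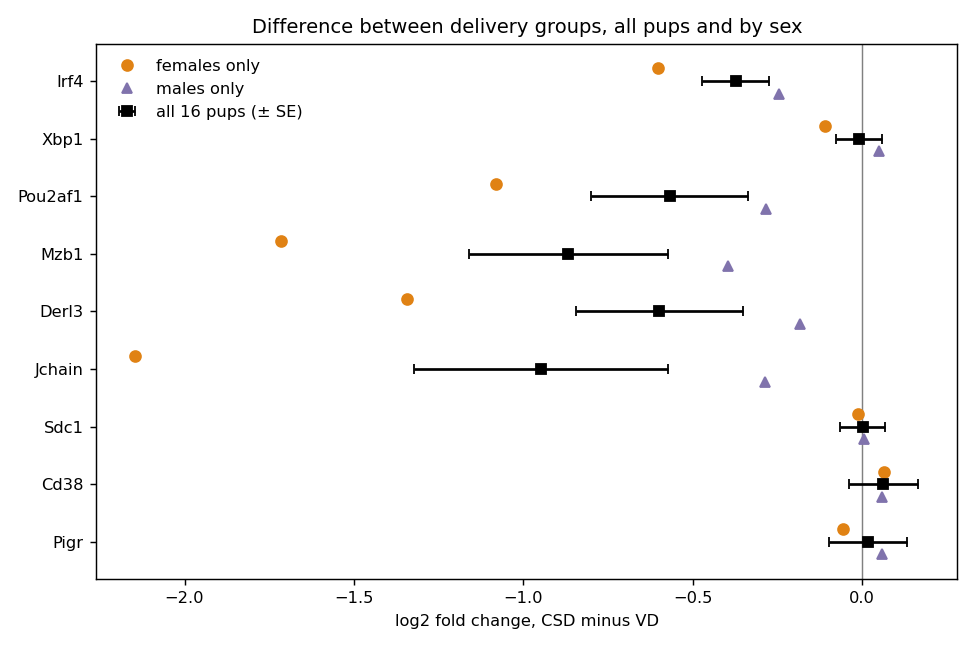
Fitted log2 fold change, CSD minus VD, of each of the 9 genes in all 16 pups (squares, with 1 SE) and in the fits of females alone (circles) and males alone (triangles). Jchain lies at -0.95 in all pups, -2.15 in females and -0.29 in males, while Xbp1, Sdc1, Cd38 and Pigr lie between -0.11 and 0.07 in all 3 fits.

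In a fit with the slide as a fixed effect, none of the 9 genes was called between slides, Jchain having the lowest limma adjusted p, 0.669, and no gene on the array was called (2881 had an unadjusted p under 0.05). Jchain was at 15.46 ± 0.41 on slide 2 and 14.68 ± 0.16 on slide 1 in VD pups (SD, 4 pups each), and at 14.20 ± 1.07 and 13.76 ± 1.01 in CSD pups. Within slide 1 the fitted CSD minus VD difference of Jchain was -0.79 and within slide 2 it was -1.10. For Mzb1 these differences were -0.78 and -0.96, for Irf4 -0.36 and -0.38, for Pou2af1 -0.39 and -0.75, and for Derl3 -0.29 and -0.91, all with fewer samples and none called. With the slide as a fixed effect the difference of Jchain was -0.94 and that of Irf4 -0.37.

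With litters and sexes pooled, the CSD group had the larger SD in 7 of the 9 genes, not only in those with lower CSD means. The SD of the CSD pups was 2.28 times that of the VD pups in Mzb1, 2.05 times in Cd38, 1.97 times in Jchain, 1.96 times in Pou2af1, 1.52 times in Irf4, 1.39 times in Derl3 and 1.35 times in Pigr, where the median of this ratio over all genes was 1.06. In Xbp1 and Sdc1 it was 0.91 and 0.70. Of all genes, 92.4% had a lower ratio than Mzb1 and 69.3% a lower ratio than Pigr, and no test of the spread was made. Within litters the SD of Pigr was 0.14 and 0.09 (CSD, mothers 3 and 4) and 0.26 and 0.12 (VD, mothers 5 and 6). That of Cd38 was 0.20 and 0.20 in the CSD and 0.09 and 0.14 in the VD litters. By probe, the SD of Pigr was 0.46 in CSD and 0.28 in VD pups on chromosome 1. On the probe of A and G bases it was 0.15 and 0.33.

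Across the 16 pups the 5 genes varied together. Jchain correlated with Mzb1 at Pearson's r = 0.97 (Spearman's rho = 0.90), with Derl3 at 0.96 (0.96), with Pou2af1 at 0.95 (0.91) and with Irf4 at 0.92 (0.83), each r with a permutation p of 1e-05, the smallest that 100000 permutations can give, and 4e-05 after adjustment over 36 pairs. The pups of a litter share a mother and are not independent, and the p-values treat them as if they were. The relation held within each group, with r between Jchain and Mzb1 of 0.96 in CSD and 0.91 in VD pups, and r between Jchain and Derl3 of 0.95 and 0.96. Without the 2 pups farthest from the median of Jchain (CSD 2 and CSD 3) these coefficients were 0.92 and 0.94. Xbp1 followed Jchain less closely, at r = 0.54 (permutation p = 0.0316, adjusted 0.0758) and rho = 0.75 (adjusted p = 0.00337), with 0.67 within CSD and 0.73 within VD pups. Sdc1 had r = -0.23, Cd38 -0.29 and the mean of the Pigr probes -0.12 with Jchain. By probe, Pigr had r = 0.18 with Jchain on chromosome 1 and -0.42 on the probe of A and G bases. Pigr and Cd38 correlated with each other at r = 0.63 (rho = 0.61, adjusted permutation p = 0.0313 and 0.0319; r = 0.59 without CSD 9 and VD 11), and at r = 0.71 when Pigr was read from its chromosome 1 probe.

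**Figure D4:**
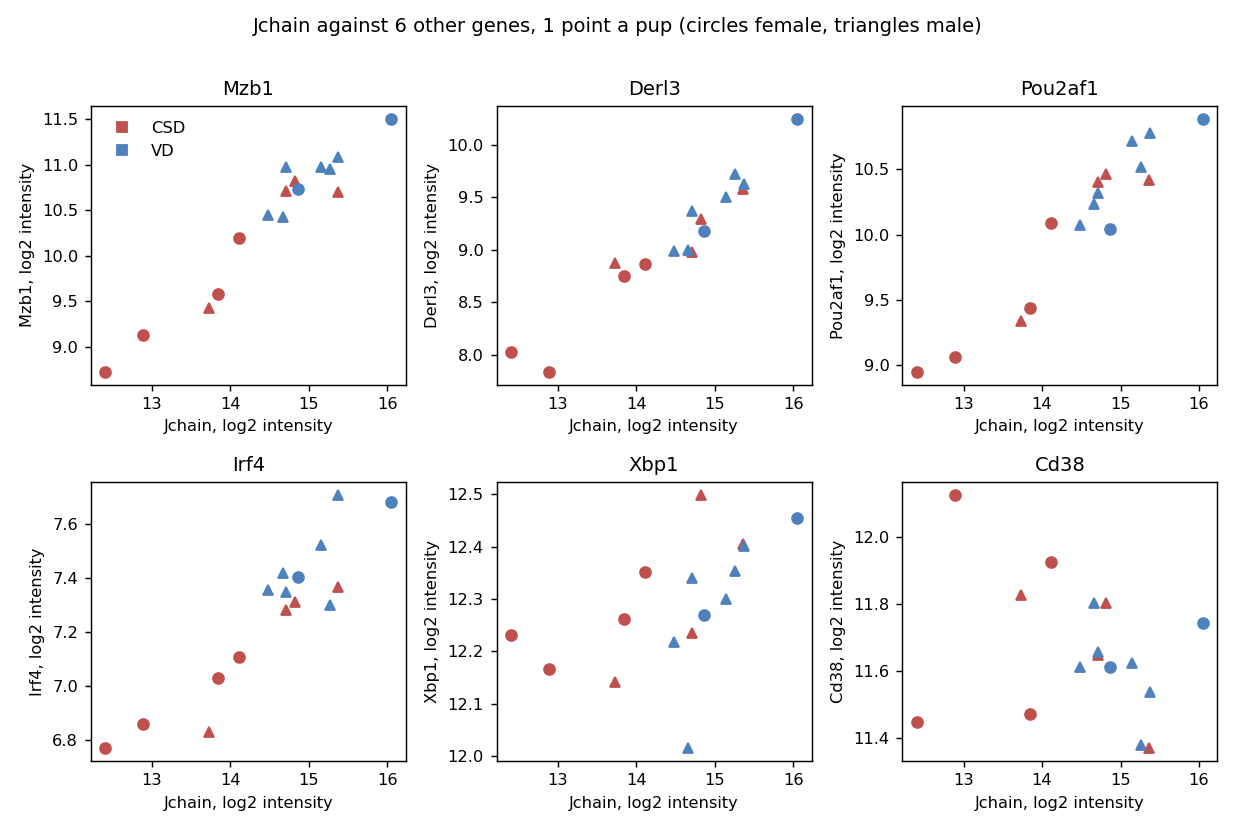
Log2 intensity of 6 genes (vertical) against that of Jchain (horizontal), 1 point a pup, CSD red and VD blue, females circles and males triangles. Mzb1, Derl3, Pou2af1 and Irf4 increase with Jchain through both groups, Xbp1 does so less closely (r = 0.54), and Cd38 does not (r = -0.29).

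The genes most like Jchain over the 16 arrays, out of 20547 other genes well above background on every array, were antibody genes and unnamed transcripts. In order of Pearson's r they were the kappa constant chain ENSMUST00000103410 (0.99), 2 long noncoding transcripts that the array names by their position on chromosomes 9 (0.99) and 17 (0.98), the alpha constant chain ENSMUST00000178282 (0.98) and Igh-VJ558 (0.98). Of the 9 genes, Mzb1 was number 7 in that order, Derl3 number 8, Pou2af1 number 10 and Irf4 number 22, whereas Xbp1 was number 1448. The genes most like the mean of the Pigr probes were NAP114927-1 (r = 0.87), ENSMUST00000187246 (0.86), LF196875 (0.83), Srpr (0.82) and Slc7a5 (0.82). For the chromosome 1 probe alone the closest were Plekha2 (0.84), Fbxo24 (0.82) and Camk2n1 (0.81), so that none of the 5 genes nearest to the mean was among them. These likenesses are descriptions, since pups share litters and slides.

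In the lists of plasma cell identity and of IgA class switching no gene was called, where 1.25% of all genes were called and 17725 of 36711 were lower. Of 18 further genes of plasma cell transcription and identity, 14 had lower and 4 higher values in CSD pups, none was called, and their median log2 difference was -0.06, where all genes had a median of 0.00. At an unadjusted p under 0.05, 4 were lower and 2 higher, where 7.09% and 7.37% of all genes were. Prdm1, which encodes the factor BLIMP1 that seals the plasma cell state, was at 0.02 (limma adjusted p = 0.962), and Tnfrsf17, the survival receptor BCMA, at -0.57 (adjusted p = 0.189). The 2 genes with the smallest p were Ell2, an elongation factor of antibody transcription, at 0.30 (adjusted p = 0.0822) and Lax1, a membrane adaptor of lymphocytes, at -0.27 (adjusted p = 0.163). Of 26 genes of IgA class switching and survival, 20 were lower and none was called, with a median of -0.08. Of these 26, 8 were lower at an unadjusted p under 0.05 and none was higher. The closest were Tnfrsf13b, the receptor TACI, at -0.44 (adjusted p = 0.0806) and Tgfb1, whose product directs the switch to IgA, at -0.22 (adjusted p = 0.097).

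Among genes of the secretory pathway and targets of XBP1, 5 of 50 were called higher in CSD pups and none lower. Of the 50, 33 had higher and 17 lower values, with a median of 0.03, against 18986 higher and 17725 lower of all 36711 genes, and 0.706% of all genes were called higher. At an unadjusted p under 0.05, 16 were higher and none lower, where 7.37% of all genes were higher. The 5 were Manf, a protective factor of the endoplasmic reticulum, with 11.88 ± 0.08 in CSD and 11.61 ± 0.06 in VD pups (SD, n = 8 each; fitted difference 0.26, limma adjusted p = 0.00571), the disulphide isomerases Pdia3 (0.33, adjusted p = 0.0195) and Pdia6 (0.18, 0.035), the ubiquitin ligase Syvn1 (0.20, 0.0408) and the chaperone partner Dnajb9 (0.25, 0.0421). Epithelial and all other secretory cells use these genes too, while Derl3 and Mzb1, which serve the same compartment, had lower CSD means. Leaving out 1 pup ended the call of Pdia3 only for VD 4, ended none of Manf, and ended that of Pdia6 in 9, of Syvn1 in 11 and of Dnajb9 in 13 of the 16 fits. Over all 39 alternatives the call of Manf was lost in 9, of Pdia3 in 12, of Pdia6 in 22, of Syvn1 in 26 and of Dnajb9 in 30.

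On the way to the lumen, 32 genes of epithelial IgA transport and its regulation were divided, with 17 higher and 15 lower and a median of 0.01, where 18986 of all 36711 genes were higher and 17725 lower. Yes1, a kinase of the Src family that acts in the passage of the receptor with its cargo, was called higher (10.89 ± 0.10 against 10.61 ± 0.08, SD, n = 8 each; 0.25, limma adjusted p = 0.00982), and stayed past the threshold in all 16 fits that left out 1 pup, but lost the call in 9 of all 39 alternatives (adjusted p up to 0.422), those with fewer pups or litter means. Of all genes, 0.706% were called higher. At an unadjusted p under 0.05, 5 of the 32 were higher and 3 lower, where 7.37% and 7.09% of all genes were. Among 14 genes of homing to the gut, 13 were lower, with a median of -0.24, and 1 was called, the chemokine receptor Ccr6 at -0.80 (10.10 ± 0.30 against 10.90 ± 0.42, SD, n = 8 each; adjusted p = 0.0465), where 0.548% of all genes were called lower. Of these 14, 9 were lower at an unadjusted p under 0.05 and none was higher, where 7.09% of all genes were lower. Itgb7, a chain of the integrin that binds gut vessels, was at -0.37 (adjusted p = 0.0509), and Ccr10, the receptor that brings IgA plasma cells to the colon, at -0.75 (adjusted p = 0.0744), both named after their values were seen, as were Prdm1 and Tnfrsf17. The call of Ccr6 was lost in 13 of the 16 fits that left out 1 pup, all but those without CSD 9, VD 7 or VD 8, and its difference was -0.45 without the litter of mother 5.

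Markers of other lymphoid cells had lower CSD means as well, and their part in the plasma cell result was not tested. For the counts that follow, 17725 of all 36711 genes were lower in CSD pups, 0.548% were called lower and 0.706% called higher. Of 18 genes of the B cell programme that plasma cells shut down, 17 were lower, with a median of -0.31, and Bcl6, a repressor in germinal centre B cells that holds back the plasma cell state, was the only one called and was higher, at 0.41 (9.03 ± 0.21 against 8.63 ± 0.16, SD, n = 8 each; limma adjusted p = 0.0409), a call lost in 11 of the 16 fits that left out 1 pup. The brightest of the 18 was Cd79b (10.87 ± 1.05 against 11.61 ± 0.53). All 9 measured markers of lymphoid follicles were lower, with a median of -0.57, a summed intensity with a median of 14421 in CSD and 19646 in VD pups, and none called; the brightest was Ccl21a (12.95 ± 0.43 against 13.44 ± 0.24). All 10 T cell markers were lower, with a median of -0.29, summed medians of 2682 and 3865 and none called. The brightest was Cd2 (9.25 ± 0.55 against 10.13 ± 0.58), and 1 of the 10 was above background on no array. These sums add linear intensities of different probes, so that the brightest genes weigh most in them. Macrophage markers were lower in 8 of 9 (median -0.21, Lyz2 the brightest). At an unadjusted p under 0.05, 11 of the 18 B cell genes and 7 of the 9 follicle markers were lower. So were 3 of the 10 T cell and 3 of the 9 macrophage markers, where 7.09% of all genes were. In these lists only Bcl6 was higher at that limit. Markers of epithelium were lower in 4 of 12 (median 0.05), those of muscle and stroma in 8 of 10 (median -0.10), and housekeeping genes in 9 of 12 (median -0.01).

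**Figure D5:**
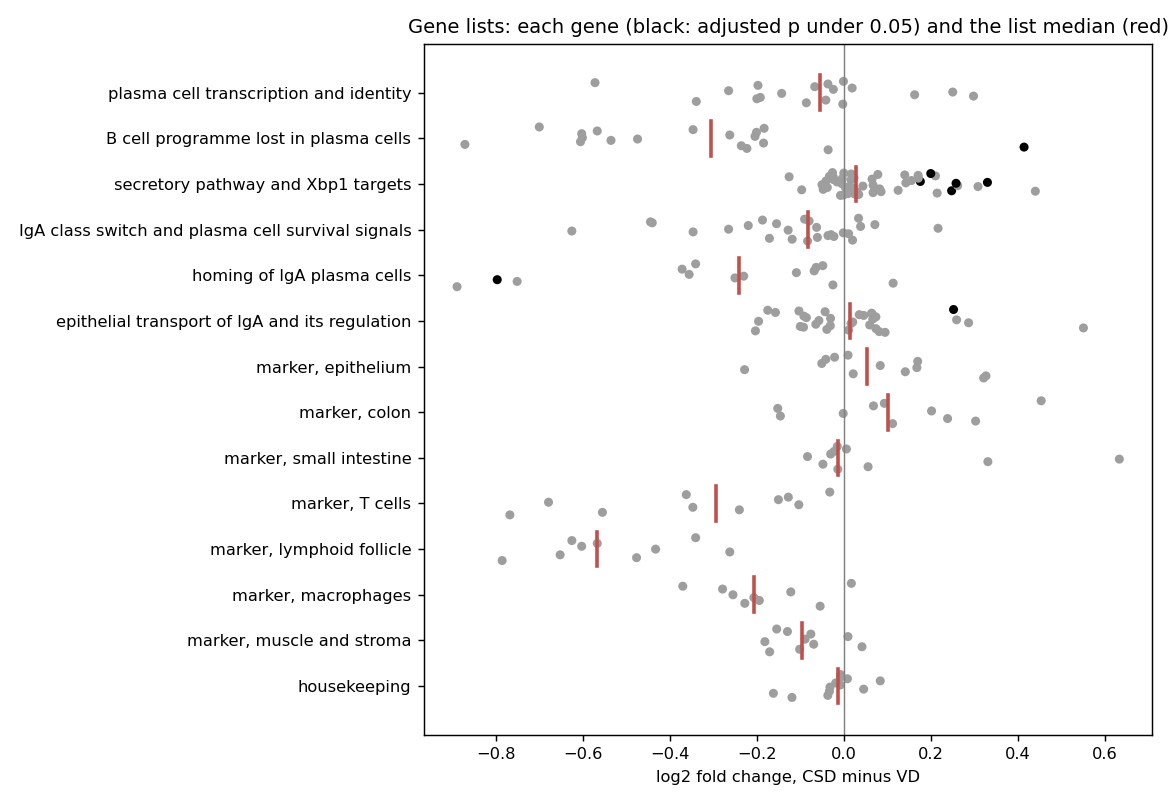
Fitted log2 fold change, CSD minus VD, of each gene in 14 lists, black where the adjusted p was under 0.05 and grey otherwise, with the list median as a red line. Lymphoid follicle, T cell and B cell lists lie mostly below 0 (medians -0.57, -0.29 and -0.31), and the secretory list holds 5 called genes above 0.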

How the data were processed

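Colon RNA of 16 pups was hybridised to 1-colour (Cy3) Agilent arrays. The authors deposited the scanner output of Agilent Feature Extraction 12.0.3.2, with spot intensity and local background on a linear scale and probe positions on mm9, and a matrix of log2 values per gene that they made with limma 3.38 by background correction, quantile normalization, filtering and averaging of probes. Here the mean spot intensities were corrected by normexp (offset 50), controls and outlier spots were left out, and log2 values were quantile normalized between arrays. Probes above the 5% quantile in at least 4 arrays (56366 of 56605) were averaged per gene name. Each of 36711 genes was fitted with limma 3.58.1 in R 4.3.3 (delivery mode and sex fixed, mother random by duplicateCorrelation, consensus correlation 0.015), with Benjamini-Hochberg adjustment and a threshold of 0.05. Of these genes, 218 lacked a value on some array and were fitted on the others. Pups of a litter are not independent, and with 2 litters a group an exact test over litters cannot reach 0.05. The number of arrays limits the precision. Tested on simulated data with no litter effect, this model estimated a negative correlation within litters and made more false calls than its threshold allows, and more than the model without mother made. In the data themselves the estimated correlation was positive, and the model without mother called 587 genes against 460. Whether the fault seen in simulation bears on these fits was not tested. Genes were named by rule: the 9 genes with all their probes, and the 5 genes most correlated with Jchain and with Pigr. From each list, the called genes were to be named or, with none called, the 2 of lowest p. For the marker and housekeeping lists, where none was called, the rule was not carried through, and most of those genes are not named. Outside this rule, Itgb7, Ccr10, Prdm1, Tnfrsf17 and the immunoglobulin constant chains were named after their values were seen. The brightest genes of the B cell list and of some marker lists were named to give the lists' levels. The 9 genes and the lists were chosen with earlier results of these data known. Alternatives covered background correction, scaling, filters, model terms, litters, slides and single pups. Figures were drawn with matplotlib 3.10.9.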

Additional observations from a re-analysis of the deposited data

Results flagged for a closer look

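In 96 sets of 8 values (48 genes in each delivery group), 2 held a pup far from the others, where chance alone flags about 1 in 20 such sets, and none of the 9 plasma cell and IgA transport genes was among them. Actb, a housekeeping gene, was highest in CSD 8 at 18.39, with the next CSD pup at 18.13, a gap of 0.618 of the range of the group. Fabp2, a small intestinal marker, was highest in CSD 2 at 12.96, with the next CSD pup at 12.10, a gap of 0.535 of the range. Both gaps are past Dixon's limit for 8 values, and the largest gap among the 9 genes was 0.463.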

How the results depend on the processing

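Jchain, Mzb1, Irf4, Pou2af1 and Derl3 stayed lower in CSD pups under all 39 alternatives tried for each, with Jchain between -2.15 and -0.29 and Irf4 between -0.72 (processed signal, quantile normalized) and -0.25 (males). Of the 9 genes, 1 was called, Irf4, without sex in the model or without the litter of mother 6, and 0 under the other alternatives. The number of genes called on the whole array, 460, was 243 with a normexp offset of 16, 177 with the scanner's processed signal quantile normalized, 164 with that signal minus its 75th percentile, 170 with the deposited matrix and 992 without sex. It was 0 with litter means as samples, 0 in males, 86 in females (added after seeing the data), 11 on slide 1 and 0 on slide 2. It was 212, 138, 189 and 2265 without the litters of mothers 3, 4, 5 and 6, and between 145 (without VD 4) and 617 (without VD 7) when 1 pup was left out. The cause was not tested. The 4 genes near 0 changed sign. Their largest moves upward were 0.26 for Pigr and 0.21 for Cd38 without the litter of mother 3 (limma adjusted p = 0.201 and 0.22), 0.25 for Pigr by its brightest probe and 0.15 for Sdc1 without the litter of mother 5. The changes of sign were as follows. Pigr was -0.056 in females, -0.22 by its chromosome 1 probe, and -0.23 and -0.023 without the litters of mothers 4 and 5 (leaving out 1 pup, -0.041 to 0.084). Xbp1 was 0.016 with the processed signal minus its 75th percentile, 0.044 by its brightest probe, 0.049 in males, 0.085 on slide 1, and 0.018 and 0.033 without the litters of mothers 3 and 6 (-0.051 to 0.032). Sdc1 was -0.0011 with outlier spots kept, -0.014 by its brightest probe, -0.00024 without mother, -0.013 in females, -0.0059 on slide 2, and -0.055 and -0.081 without the litters of mothers 3 and 6 (-0.026 to 0.036). Cd38 was -0.089 without the litter of mother 4. Pup numbers 5 to 9 occur in both groups but same-numbered pups share only a number, with correlations of their deviations from -0.05 to 0.22, over 0.1 in 2 of 5 pairs. With the number as a replicate block 0 genes were called, Pigr was -0.11 and Xbp1 0.030, and for the same pups without the block 24 genes were called, Pigr was -0.12 and Xbp1 0.029.

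List medians kept their sign under all 40 alternatives for B cells (-0.56 to -0.11), lymphoid follicles (-0.80 to -0.33), T cells (-0.47 to -0.17), homing genes and secretory genes (0.01 to 0.07). So did those of macrophages (-0.30 to -0.08), IgA class switching (-0.12 to -0.04) and the antibody chain symbols (-1.46 to -0.51). Those of plasma cell identity (-0.16 to 0.01), epithelial IgA transport (-0.04 to 0.04), housekeeping genes and the remaining marker lists did not. Each group holds 2 litters, sexes are unequal between groups and dim probes compress differences.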
